A study of Mus musculus with 14 samples.

Results

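The B cell progenitor genes described here were Rag1, Rag2, Dntt, Vpreb1, Vpreb3, Igll1, Ebf1, Pax5 and Cd93, 9 genes of 22180 named on the array. They were measured in Sca1+ Kit- cells, gated on those surface proteins and taken from the bone marrow of female mice of NCR-NU, an athymic nude strain. The 14 arrays were from 3 old tumor-bearing, 5 old cancer-free, 3 young tumor-bearing and 3 young cancer-free mice. Tumor-bearing mice carried primary tumors matched for size, and cancer-free mice carried a Matrigel control. Ages are given in the labels only as old and young, and the tumor line is not given there. The labels call the arrays biological replicates, 1 array per replicate. A gene was represented by the brightest probe annotated to that gene alone. Such a probe existed for 8 of the 9 genes. Rag1 had none, because its 1 probe is also annotated to Iftap.

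B cells develop in the marrow from lymphoid progenitors. Rag1 and Rag2 form the recombinase that cuts the DNA beside V, D and J gene segments, which repair proteins then join. Dntt, terminal deoxynucleotidyl transferase, adds nucleotides at the joints. Igll1 and Vpreb1 make the surrogate light chain, which pairs with the first rearranged heavy chain in the pre-B cell receptor. Ebf1 and Pax5 are the transcription factors that specify and commit the B lineage. Vpreb3 is a chaperone-like protein of early B cells, and Cd93 is a surface protein of immature B cells that endothelial and some myeloid cells also carry.

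Levels are log2 values made by robust multi-array averaging (RMA), and 1 unit is a doubling of signal. The test took in genes brighter than 3.88, the whole table's median, on 3 or more arrays. This left 13805 of 22180 genes, among them 6 of the 9: Dntt, Vpreb3, Igll1, Ebf1, Pax5 and Cd93. Rag2 and Vpreb1 were above 3.88 on 0 of 14 arrays and are given by level. Array medians lay between 3.81 and 3.93, and the correlation between 2 arrays lay between 0.89 and 0.97. Young tumor-bearing replicate 1 and old tumor-bearing replicate 3 had the lowest mean correlation with the other arrays, at 0.899 and 0.907. Ptprc, the pan-leukocyte protein CD45, lay between 10.53 and 11.36, and Cd79a, a signalling chain of the B cell receptor, between 8.24 and 9.87. Kit lay between 5.25 and 7.03, above 3.88 on all 14 arrays of cells sorted as Kit negative. Sca1 itself is not analysed here.

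Rag2 was low in every old mouse. It was at 2.30, 2.04 and 2.11 in old tumor-bearing mice (2.15 ± 0.14, SD, n = 3) and at 2.18, 2.02, 1.99, 2.24 and 1.96 in old cancer-free mice (2.08 ± 0.13, SD, n = 5). It was at 2.82, 3.41 and 3.79 in young tumor-bearing mice (3.34 ± 0.49, SD, n = 3) and at 3.69, 3.10 and 2.70 in young cancer-free mice (3.17 ± 0.50, SD, n = 3). All 8 old mice lay below all 6 young mice, within both tumor-bearing and cancer-free animals.

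All of these Rag2 levels were under 3.88, so the probe did not enter the main test. These are orders of dim signals, and no fold is given. The same limma model was also fitted over all 22180 genes with no filter on brightness. There the dim signal of Rag2 was lower in old than in young mice on average over tumor status, with an adjusted p of 0.0350. That fit called 13 genes, 0.0586% of all. A pattern in which all old mice lie below all young mice was met by 57 genes, 0.257% of all. An exact permutation test that exchanged age labels within tumor status, two-sided over 1120 labellings, gave p = 0.000893 for Rag2, the smallest p this design can give. That p follows from the full separation of the ages described above and is no further evidence for it. It is not adjusted for the number of genes, and Rag2 was taken up without the filter after its values were seen. The call did not survive leaving out most single arrays: without each of 11 of the 14 in turn the adjusted p lay between 0.0531 and 0.0844. The adjusted p was also above 0.05 under cyclic loess scaling (0.0511) and with the replicate number as a block (0.114). In the block fit old cancer-free replicates 4 and 5 do not enter the estimates, since no other group has those numbers. The call passed without old cancer-free replicate 1 (0.0401), old tumor-bearing replicate 3 (0.0368) or young tumor-bearing replicate 1 (0.0264).

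Within each tumor status the age difference of Rag2 had the same sign and did not pass in the limma fit without the filter. Its adjusted p was 0.197 in tumor-bearing mice and 0.460 in cancer-free mice. The tumor comparison of Rag2 gave adjusted p-values of 0.937 in old mice and 0.927 in young mice in that limma fit, and its groups overlapped at both ages. The other Rag2 probe, shared with Iftap, did not separate the ages. It lay between 1.47 and 2.38 in old mice (median 2.23) and between 2.01 and 4.22 in young mice (median 2.32). The shared Rag1 probe likewise overlapped, at 3.36 to 4.23 in old mice (median 3.68) and 3.34 to 4.15 in young mice (median 3.66).

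**Figure D1:**
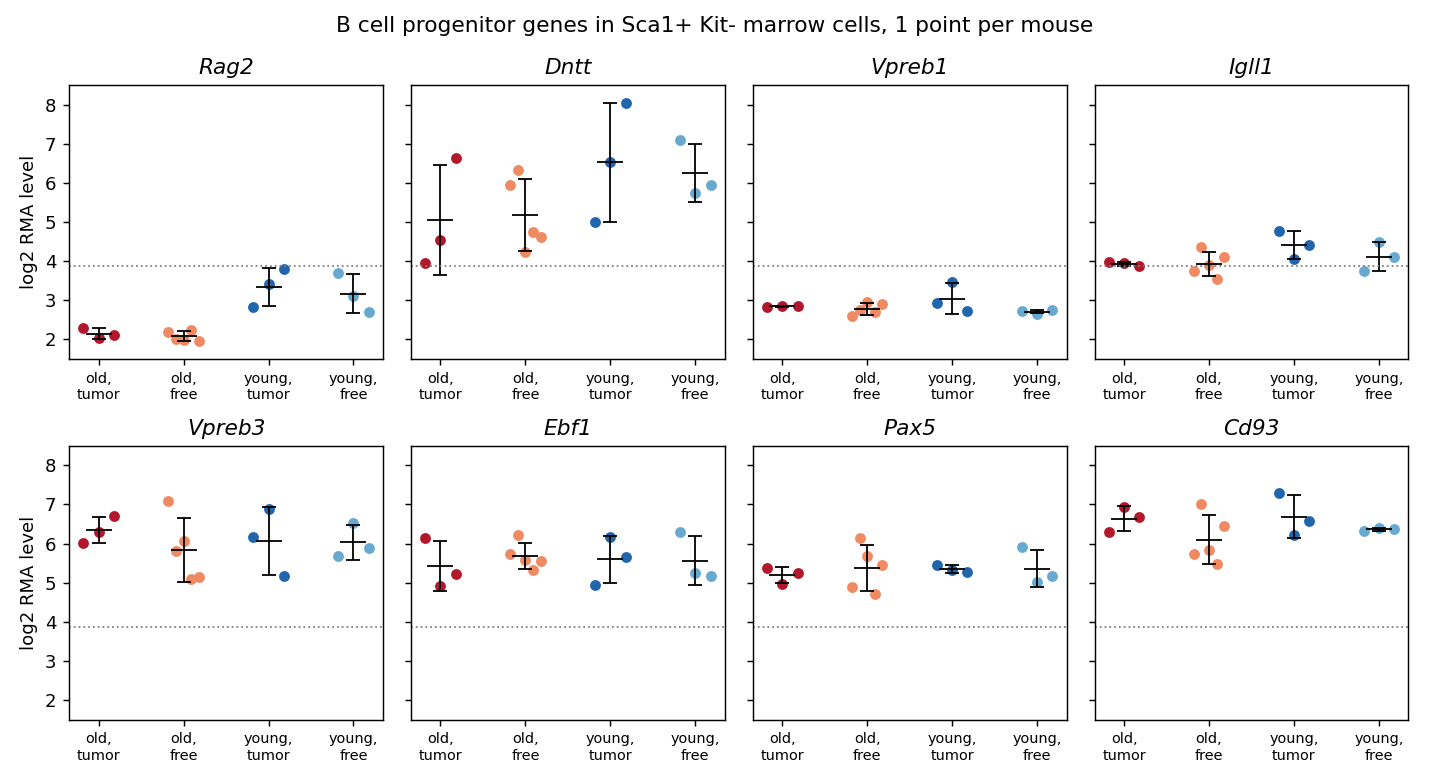
Log2 RMA level (y axis) of the 8 genes with a probe of their own in each mouse, by group; the horizontal bar is the mean, the whisker the SD and the dotted line 3.88, the median of the whole table. The 8 old mice lie below the 6 young mice for Rag2, with every point under the dotted line, while the ages overlap for the other 7 genes.

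Dntt was the tested gene with the largest difference between ages, and it varied widely within each group. It was at 3.96, 4.55 and 6.63 in old tumor-bearing mice (5.04 ± 1.40, SD, n = 3) and at 5.94, 6.34, 4.24, 4.75 and 4.61 in old cancer-free mice (5.17 ± 0.91, SD, n = 5). It was at 5.0003, 6.54 and 8.04 in young tumor-bearing mice (6.52 ± 1.52, SD, n = 3) and at 7.09, 5.73 and 5.93 in young cancer-free mice (6.25 ± 0.73, SD, n = 3). The highest and lowest old values both came from tumor-bearing mice, and old and young mice overlapped. The old minus young difference averaged over tumor status was −1.28 ± 0.54 log2 units (SE; 95% interval −2.43 to −0.13), a fold of 0.412. It did not pass after adjustment over all tested genes (limma p = 0.0321, adjusted p = 0.326), and the exact two-sided permutation test gave p = 0.0723. Of the tested genes, 0.42% had a difference further below 0. Without the 2 arrays least correlated with the others, young tumor-bearing replicate 1 and old tumor-bearing replicate 3, the Dntt difference was −2.06 (limma adjusted p 0.0641). Those arrays held the lowest young Dntt value, 5.0003, and the highest old one, 6.63, so leaving them out had to widen the difference. That alternative was chosen after seeing the data. The Dntt difference was −1.48 ± 0.80 in tumor-bearing mice and −1.08 ± 0.72 in cancer-free mice (SE; limma adjusted p 0.556 and 0.739). In tumor-bearing mice it was −0.94 without old replicate 1, −2.27 without old replicate 3, −2.24 without young replicate 1 and −0.72 without young replicate 3. In cancer-free mice it was −0.66 without young replicate 1. The tumor difference averaged over age was 0.07 ± 0.54 (SE; limma adjusted p 0.972).

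Rag2 and Dntt varied together among young mice, and not among old ones. Over the 6 young mice Pearson's r was 0.89 and Spearman's rho 0.83, while over the 8 old mice they were −0.12 and −0.05. The mice fall into separate clusters by age for Rag2, so values are given by age. In old mice the Rag2 values spanned a narrow range at the dim end of the array, which limits any correlation there. These correlations share arrays and normalization and are given as a description, and the difference between the ages was not tested.

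The promoters of these 2 genes are shown with those of Igll1 and Vpreb1, neighbours on chromosome 16 that encode both parts of the surrogate light chain and lie on the same strand. Each sequence covers 300 bases around the annotated start site, from RefSeq on GRCm38.p6, read 5′ to 3′ on the gene's strand. The regions are chr2:101624462-101624761 on the plus strand for Rag2, chr19:41029025-41029324 on the plus strand for Dntt, chr16:16863936-16864235 on the minus strand for Igll1 and chr16:16869206-16869505 on the minus strand for Vpreb1. Capitals mark matches, on either strand, to the motifs described after the sequences.
Rag2: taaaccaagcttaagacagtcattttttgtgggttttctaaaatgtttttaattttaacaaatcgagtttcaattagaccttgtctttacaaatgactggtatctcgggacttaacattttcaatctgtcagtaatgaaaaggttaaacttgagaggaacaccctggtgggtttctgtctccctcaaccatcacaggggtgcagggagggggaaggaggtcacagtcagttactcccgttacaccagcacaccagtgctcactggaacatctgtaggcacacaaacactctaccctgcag
Dntt: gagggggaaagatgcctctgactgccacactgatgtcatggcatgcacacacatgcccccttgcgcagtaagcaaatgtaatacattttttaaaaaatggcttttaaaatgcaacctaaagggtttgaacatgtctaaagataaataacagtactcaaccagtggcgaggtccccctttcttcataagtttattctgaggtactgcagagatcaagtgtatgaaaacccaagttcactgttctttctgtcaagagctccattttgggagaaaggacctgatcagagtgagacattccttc
Igll1: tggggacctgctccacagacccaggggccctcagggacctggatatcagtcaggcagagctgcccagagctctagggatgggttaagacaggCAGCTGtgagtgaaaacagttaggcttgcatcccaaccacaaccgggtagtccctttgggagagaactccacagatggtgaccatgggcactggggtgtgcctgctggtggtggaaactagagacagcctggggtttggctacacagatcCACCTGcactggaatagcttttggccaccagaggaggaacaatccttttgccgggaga
Vpreb1: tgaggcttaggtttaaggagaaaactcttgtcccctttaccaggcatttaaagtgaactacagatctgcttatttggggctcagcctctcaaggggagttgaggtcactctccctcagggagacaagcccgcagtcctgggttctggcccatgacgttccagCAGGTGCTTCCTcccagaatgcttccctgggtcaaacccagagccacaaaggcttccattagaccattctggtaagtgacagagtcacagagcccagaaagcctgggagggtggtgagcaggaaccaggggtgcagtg

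A set of 5 motifs of early B cell factors were searched on both strands in 9 RefSeq promoters of 8 of the genes (Ebf1 has 2, and none was matched for Cd93). The EBF palindrome TCCCNNGGGA was in 0 of the 9, against 0.904% of 32851 mouse promoters. The E-box CAGGTG, bound by E proteins such as the product of Tcf3, was in the windows of Igll1, Rag1 and Vpreb1, against 20.2% of all promoters. The E-box CAGCTG was in those of Igll1 and Rag1, against 16.3%. The Ikaros core TGGGAA was in those of Ebf1 and Rag1, against 25.6%. The Ets core AGGAAG was in those of Rag1, Vpreb1 and Vpreb3, against 35.4%. In Igll1 the E-boxes began at −158 (CAGCTG) and −8 (CAGGTG, on the other strand), counted from the start site. In Vpreb1 the E-box at −88 directly adjoined an Ets core at −82. The windows of Rag2, Dntt and Pax5, and 1 of the 2 of Ebf1, held none of the 5.

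The surrogate light chain genes were dim. Igll1 was above 3.88 on 10 of 14 arrays. It was at 3.98, 3.94 and 3.87 in old tumor-bearing mice (3.93 ± 0.06, SD, n = 3) and at 3.74, 4.36, 3.90, 3.55 and 4.11 in old cancer-free mice (3.93 ± 0.31, SD, n = 5). It was at 4.78, 4.04 and 4.42 in young tumor-bearing mice (4.41 ± 0.37, SD, n = 3) and at 3.74, 4.48 and 4.11 in young cancer-free mice (4.11 ± 0.37, SD, n = 3). Among tumor-bearing mice the old values all lay below the young ones, while among cancer-free mice the ages overlapped. The old minus young difference was −0.48 ± 0.25 in tumor-bearing mice (SE; 95% interval −1.03 to 0.06; limma adjusted p 0.537). It was −0.18 ± 0.23 in cancer-free mice (SE; limma adjusted p 0.875). Averaged over tumor status it was −0.33 ± 0.17 (SE; limma adjusted p 0.419; exact two-sided permutation p 0.0759). Igll1 was the 1 gene of the 6 tested whose old and young tumor-bearing mice did not overlap, and 13.0% of all tested genes had groups that did not overlap in that comparison. Averaged over age, tumor-bearing minus cancer-free was 0.15 ± 0.17 for Igll1 (SE; limma adjusted p 0.768).

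Vpreb1 lay below 3.88 on every array. It was at 2.83, 2.87 and 2.85 in old tumor-bearing mice and at 2.59, 2.76, 2.95, 2.71 and 2.90 in old cancer-free mice. It was at 2.93, 3.48 and 2.72 in young tumor-bearing mice and at 2.73, 2.66 and 2.75 in young cancer-free mice. The ages overlapped, and 1 young tumor-bearing mouse, replicate 2, was higher than the other 13. In the limma fit without the brightness filter its adjusted p was 0.888 for age and 0.561 for tumor, each averaged over the other factor. With every value below 3.88 no difference is given. Whether a change of Vpreb1 could be detected at this signal was not tested. Vpreb2, a near-identical copy of Vpreb1 that was looked up after the values were seen, lay between 4.27 and 4.78 in old mice and between 4.23 and 5.16 in young mice on its own probe. How far the 2 probes share target RNA was not tested.

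Vpreb3 was well above the table's median in all mice and did not separate the groups. It was at 6.02, 6.31 and 6.69 in old tumor-bearing mice (6.34 ± 0.34, SD, n = 3) and at 7.09, 5.80, 6.06, 5.09 and 5.15 in old cancer-free mice (5.84 ± 0.82, SD, n = 5). It was at 6.16, 6.87 and 5.16 in young tumor-bearing mice (6.06 ± 0.86, SD, n = 3) and at 5.69, 6.54 and 5.88 in young cancer-free mice (6.03 ± 0.45, SD, n = 3). Old cancer-free mice alone spanned the whole range of the series. The average old minus young difference was 0.04 ± 0.33 log2 units (SE; 95% interval −0.68 to 0.76; limma adjusted p 0.968). The average tumor difference was 0.27 ± 0.33 (SE; 95% interval −0.45 to 0.98; limma adjusted p 0.791).

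The lineage factors Ebf1 and Pax5 had the narrowest spread of group means among the 8 genes. Ebf1 was at 6.15, 4.92 and 5.23 in old tumor-bearing mice (5.43 ± 0.64, SD, n = 3) and at 5.73, 6.21, 5.57, 5.32 and 5.56 in old cancer-free mice (5.68 ± 0.33, SD, n = 5). It was at 4.95, 6.17 and 5.66 in young tumor-bearing mice (5.59 ± 0.61, SD, n = 3) and at 6.30, 5.24 and 5.16 in young cancer-free mice (5.57 ± 0.63, SD, n = 3). All 4 groups overlapped for Ebf1. Its old minus young difference was −0.02 ± 0.26 (SE; 95% interval −0.59 to 0.54; limma adjusted p 0.978). Its tumor difference was −0.11 ± 0.26 (SE; 95% interval −0.67 to 0.46; limma adjusted p 0.900).

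Pax5 was at 5.38, 4.96 and 5.24 in old tumor-bearing mice (5.19 ± 0.21, SD, n = 3) and at 4.90, 6.13, 5.69, 4.71 and 5.44 in old cancer-free mice (5.38 ± 0.58, SD, n = 5). It was at 5.46, 5.32 and 5.28 in young tumor-bearing mice (5.35 ± 0.10, SD, n = 3) and at 5.90, 5.02 and 5.16 in young cancer-free mice (5.36 ± 0.47, SD, n = 3). The 4 groups overlapped, and the highest and the lowest mouse were both old and cancer-free. The old minus young difference of Pax5 was −0.07 ± 0.22 (SE; 95% interval −0.55 to 0.40; limma adjusted p 0.919). The tumor difference was −0.10 ± 0.22 (SE; 95% interval −0.57 to 0.38; limma adjusted p 0.894). These intervals hold differences of less than 1 log2 unit in either direction. They do not show that the groups were equal. Over the 14 arrays the r with the mean of the mature B cell genes listed below was 0.77 for Pax5 and 0.52 for Ebf1. Within groups it was 0.82 and 0.54. Without the 2 arrays farthest from each gene's median it was 0.57 and 0.17. How much of either signal came from progenitors or from mature B cells was not tested.

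Cd93 gave the largest average tumor difference of the 6 tested genes. It was at 6.30, 6.92 and 6.68 in old tumor-bearing mice (6.64 ± 0.31, SD, n = 3) and at 5.73, 7.01, 5.85, 5.47 and 6.45 in old cancer-free mice (6.10 ± 0.62, SD, n = 5). It was at 7.28, 6.22 and 6.57 in young tumor-bearing mice (6.69 ± 0.54, SD, n = 3) and at 6.31, 6.39 and 6.37 in young cancer-free mice (6.36 ± 0.04, SD, n = 3). Tumor-bearing and cancer-free mice overlapped at both ages. The tumor difference was 0.54 ± 0.32 in old mice and 0.33 ± 0.36 in young mice (SE; limma adjusted p 0.613 and 0.931). Averaged over age it was 0.43 ± 0.24 (SE; 95% interval −0.09 to 0.95; limma adjusted p 0.554). The average old minus young difference of Cd93 was −0.16 ± 0.24 (SE; limma adjusted p 0.821).

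**Figure D2:**
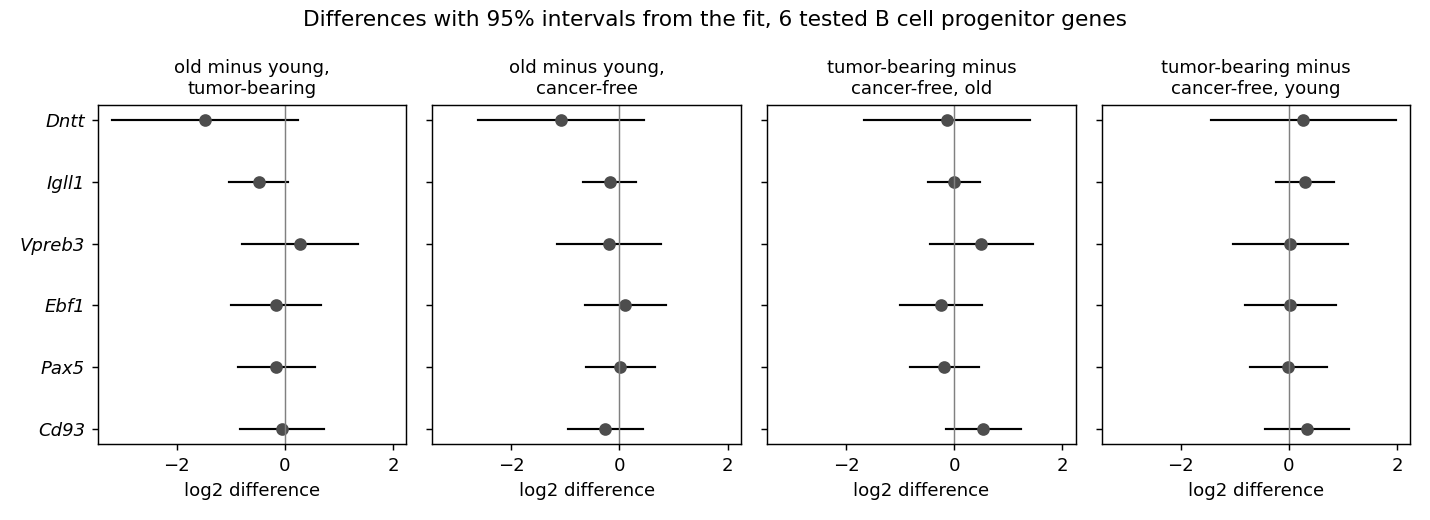
Log2 difference (x axis) with its 95% interval from the limma fit for the 6 tested genes, in 4 panels for old minus young and tumor-bearing minus cancer-free within each stratum. Every interval includes 0, and Dntt has the widest intervals, with differences of −1.48 and −1.08 between ages.

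None of the 6 tested genes passed an adjusted p of 0.05 in any of the 7 limma comparisons. For the age difference averaged over tumor status, 0 of the 6 were called, against 12 genes or 0.0869% of all tested. At an unadjusted p of 0.05, 1 of the 6 passed there, Dntt, against 13.4% of all tested genes. That share is close to the background. Of the 6 differences 5 were below 0, with a median of −0.11, against a median of −0.01 over all tested genes.

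The other 6 comparisons called 0 of the 6 genes and 0.0% of all genes at an adjusted p of 0.05 by limma. At an unadjusted p of 0.05 they also gave 0 of the 6. The share of all tested genes at that p was 10.1% for age among tumor-bearing and 7.66% for age among cancer-free animals. It was 9.76% for tumor in old mice and 5.4% for tumor in young mice. It was 10.2% for the average tumor difference and 4.42% for the difference of the tumor effect between ages. For the average tumor difference 4 of the 6 values were above 0, with a median of 0.11, against −0.01 over all tested genes. For the difference of the tumor effect between ages the median of the 6 was −0.22, against 0.02 over all genes, and no adjusted p of the 6 was below 0.992.

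The genes did not vary as 1 block across mice. Of 28 pairs among the 8 genes, 3 had a Pearson's r above 0.5 in size over the 14 arrays. For Rag2 and Dntt the pooled r of 0.69 spans the age clusters and was 0.38 without the 2 arrays farthest from the median of Rag2 and 0.54 within groups. Igll1 and Cd93 had an r of 0.73 and a rho of 0.66, with 0.68 after leaving out the 2 arrays farthest from the median of Igll1 and 0.79 within groups. Ebf1 and Pax5 had an r of 0.58 and a rho of 0.49. The r of Ebf1 and Pax5 was 0.26 without the 2 arrays farthest from the median of Ebf1 and 0.57 within groups. The r of Rag2 with Dntt and of Ebf1 with Pax5 was thus lower without those arrays. For Rag2 they were its 2 brightest mice, both young. Leaving out such arrays narrows the range of the gene, which limits any correlation, so nothing is concluded from the drop. The 14 mice share 4 groups and 1 normalization, and no p is given for these pairs.

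**Figure D3:**
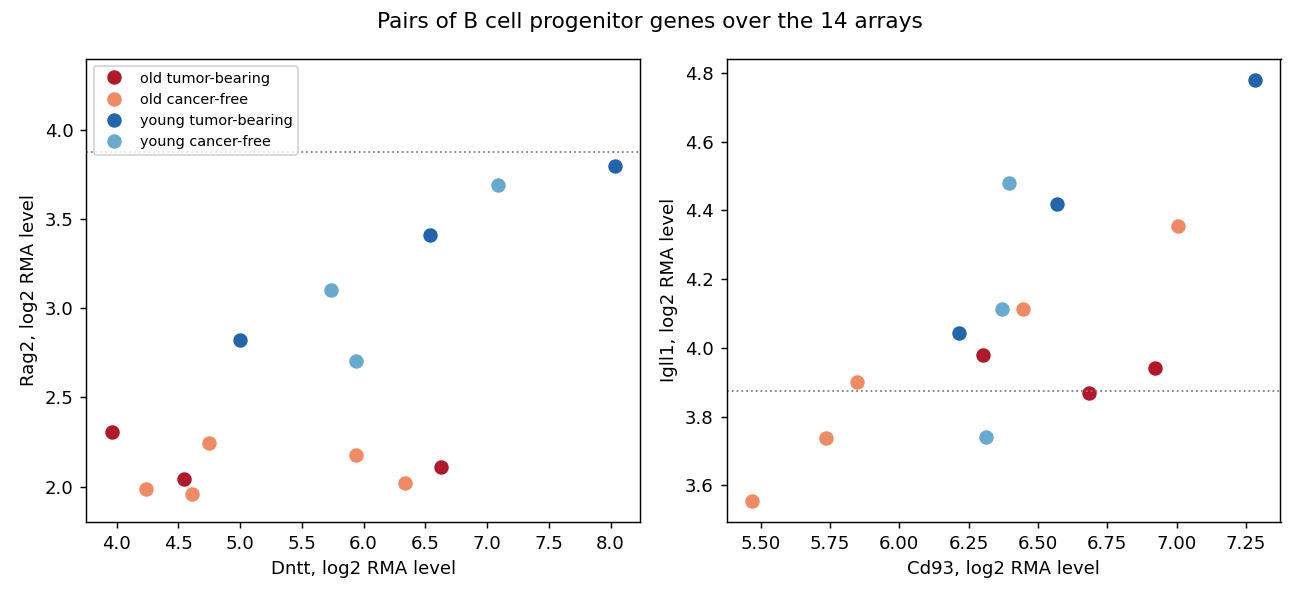
Log2 RMA level of Rag2 against Dntt (left) and of Igll1 against Cd93 (right), 1 point per mouse coloured by group, with the dotted line at 3.88. The young mice run from low to high in both Rag2 and Dntt (r 0.89, n = 6), while the old mice stay at the bottom of the Rag2 axis with Dntt between 3.96 and 6.63 (r −0.12, n = 8).

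For each tested gene the 3 other tested genes with the highest Pearson's r over the 14 arrays were listed, as a description. Rgs18 (0.86), Ranbp1 (0.84) and Ezh2 (0.83) were nearest to Dntt. Lrrc25 (0.91), Vma21 (0.84) and Caprin1 (0.83) were nearest to Igll1. Zfp472 (0.87), Gca (0.84) and Cdhr3 (0.84) were nearest to Vpreb3. Rhob (0.87), Trmo (0.84) and Cbwd1 (0.81) were nearest to Ebf1. Med12l, Srpk3 and Rnf19b, each at 0.78, were nearest to Pax5, and Nek7 (0.81), Cdc42se2 (0.80) and Col4a3 (0.79) to Cd93. The lists of different genes shared no name. The mean of the 6 centred genes was nearest to Mad2l2 (0.89), Tpx2 (0.86) and Cpeb3 (0.86). For Rag2, added after its values were seen, the nearest were Morf4l2 (0.85), E2f7 (0.85) and Tmx1 (0.84), at 0.69, 0.63 and 0.64 within groups.

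Other genes of early B cell development were described with the same fit. Among 20 further transcription factors of the B and lymphoid lineages, 18 were lower in old mice on average, with a median difference of −0.20, against −0.01 over all genes. At an unadjusted p of 0.05, 6 of the 20 were lower and 0 higher, against 8.97% lower and 4.44% higher over all tested genes, and 0 passed after adjustment. The mean level of the list lay between 6.77 and 6.97 in old tumor-bearing and between 6.80 and 7.18 in old cancer-free mice. It lay between 7.32 and 7.46 in young tumor-bearing and between 7.31 and 7.49 in young cancer-free mice, so old and young mice did not overlap. The mean of the cell cycle genes described below did not overlap by age either. Sox4, a factor of lymphoid progenitor survival, differed by −1.13 ± 0.26 between old and young mice (SE; limma adjusted p 0.0884). Myb, a regulator of early haematopoiesis, differed by −1.10 ± 0.27 (SE; limma adjusted p 0.111). Spib, an Ets factor of B cells and plasmacytoid dendritic cells, differed by −2.14 ± 0.54 (SE; limma adjusted p 0.117). It is also counted among the plasmacytoid dendritic cell genes below, so the lists are not separate. Id2, an inhibitor of E proteins, differed by −0.70 ± 0.20 between tumor-bearing and cancer-free mice (SE; limma adjusted p 0.337).

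Among genes of early lymphoid progenitors, 13 were tested, of which 7 were lower and 6 higher in old mice. At an unadjusted p of 0.05, 5 were lower and 2 higher, against 8.97% and 4.44% of all tested genes, and 0 passed after adjustment. Flt3, the receptor that marks multipotent and common lymphoid progenitors, lay between 3.73 and 5.18 in old mice and between 4.75 and 6.98 in young mice. Its average old minus young difference was −1.47 ± 0.30 (SE; limma adjusted p 0.0768). Il7r, the interleukin-7 receptor chain that B cell progenitors need in mice, had the opposite sign, at 0.51 ± 0.19 (SE; limma adjusted p 0.265). Spn, the CD43 protein of pro-B cells and other leukocytes, differed by −0.58 ± 0.17 (SE; limma adjusted p 0.171).

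Of 12 genes of pre-B cell receptor signalling, 11 were lower in old mice, with a median of −0.21 and 1 lower at an unadjusted p of 0.05 (8.97% of all tested genes), the kinase Syk at −0.59 ± 0.24 (SE; limma adjusted p 0.316). Blk, another kinase of that pathway, differed by −0.50 ± 0.24 (SE; limma adjusted p 0.391). Of 13 genes that repair V(D)J breaks, 10 were lower in old mice, with a median of −0.17, 2 of them lower and 1 other higher at an unadjusted p of 0.05, against 8.97% and 4.44% of all tested genes. By tumor, averaged over age, 11 of the 13 were lower in tumor-bearing mice. The median was −0.20, against −0.01 over all tested genes. At an unadjusted p of 0.05, 2 of the 13 were lower and 0 higher by tumor. Of all 13805 tested genes, 830 were lower and 584 higher by tumor at that p, 10.2% in either direction. H2ax, the histone variant phosphorylated at breaks, differed by −0.95 ± 0.31 and Hmgb2, a cofactor of RAG cleavage, by −0.55 ± 0.19 (SE; limma adjusted p 0.224 and 0.238). H2ax and Hmgb2 are also abundant in dividing cells. No gene of these 4 lists passed adjustment in the average age or tumor difference.

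Markers of plasmacytoid dendritic cells and of cell division are set beside Rag2 and Dntt here. Of 14 plasmacytoid dendritic cell genes, 13 were lower in old mice, 9 of them at an unadjusted p of 0.05, against 8.97% of all tested genes, and 0 after adjustment, with a median of −0.71. Their mean level lay between 5.73 and 5.96 in old tumor-bearing, 5.53 and 6.57 in old cancer-free, 6.48 and 7.26 in young tumor-bearing and 6.33 and 7.19 in young cancer-free mice. Cox6a2, a respiratory chain subunit prominent in mouse plasmacytoid dendritic cells, differed by −1.57 ± 0.31 (SE; limma adjusted p 0.0680). Of 17 cell cycle genes all were lower in old mice, 16 at an unadjusted p of 0.05, against the same 8.97%, and 0 after adjustment, with a median of −1.09. Their mean level lay between 5.48 and 6.66 in old tumor-bearing, 5.58 and 6.73 in old cancer-free, 6.86 and 7.33 in young tumor-bearing and 6.98 and 7.32 in young cancer-free mice. Mki67, a marker of dividing cells, differed by −1.53 ± 0.29 (SE; limma adjusted p 0.0601). Over the 14 arrays the r of Dntt was 0.71 with the mean of the plasmacytoid dendritic cell genes and 0.74 with that of the cell cycle genes. For Rag2 these were 0.74 and 0.70, which span its age clusters. Within groups the r with these means was 0.56 and 0.64 for Dntt, and 0.21 and 0.08 for Rag2. Other lists also varied with these genes. With early lymphoid progenitor genes r was 0.77 for Rag2 (0.74 within groups) and 0.60 for Dntt (0.43 within groups). With monocyte and macrophage genes it was 0.62 for Rag2 (−0.09 within groups) and 0.67 for Dntt (0.49 within groups). With the further B lineage transcription factors it was 0.77 for Rag2 (−0.09 within groups) and 0.64 for Dntt (0.45 within groups). With stromal and endothelial genes it was 0.65 for Rag2 (0.46 within groups) and 0.59 for Dntt (0.47 within groups). The part of any of these cell types or of division in the levels of Rag2 and Dntt was not tested. In sorted cells measured in bulk, fewer cells of a type and less RNA per cell cannot be told apart.

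The medians of the remaining marker lists had both signs. The counts that follow are of genes at an unadjusted p of 0.05, for age against 8.97% of all tested genes lower and 4.44% higher. T cell genes had a median age difference of 0.69 (0.98 in tumor-bearing and 0.11 in cancer-free mice), with 6 of 12 higher at that p. Monocyte and macrophage genes had one of −0.63, with 6 of 10 lower at that p, of which Itgam passed adjustment. Neutrophil genes had one of −0.44, with 1 of 14 lower at that p, and natural killer cell genes one of −0.29, with 2 of 11 lower at that p. Stem and progenitor genes were at 0.04, with 1 of 8 lower at that p. Stromal and endothelial genes were at −0.05, with 1 of 8 lower at that p, Pecam1, which passed adjustment. Mature B cell genes had a median of −0.18, with 1 of 11 lower at that p, and plasma cell genes one of −0.01, with 0 of 9 either way at that p. Ighm, the 1 immunoglobulin constant region tested, lay between 13.04 and 13.21 on all arrays, at the top of the scale. For the average tumor difference, plasma cell genes were at 0.22 (1 of 9 higher at that p) and mature B cell genes at −0.26 (2 of 11 lower). Natural killer cell genes were at −0.38 (6 of 11 lower) and T cell genes at −0.48 (4 of 12 lower). Of all 13805 tested genes, 830 were lower and 584 higher by tumor at that p, and 0 passed adjustment. The T cell median for tumor was −0.89 in young mice and −0.14 in old mice.

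**Figure D4:**
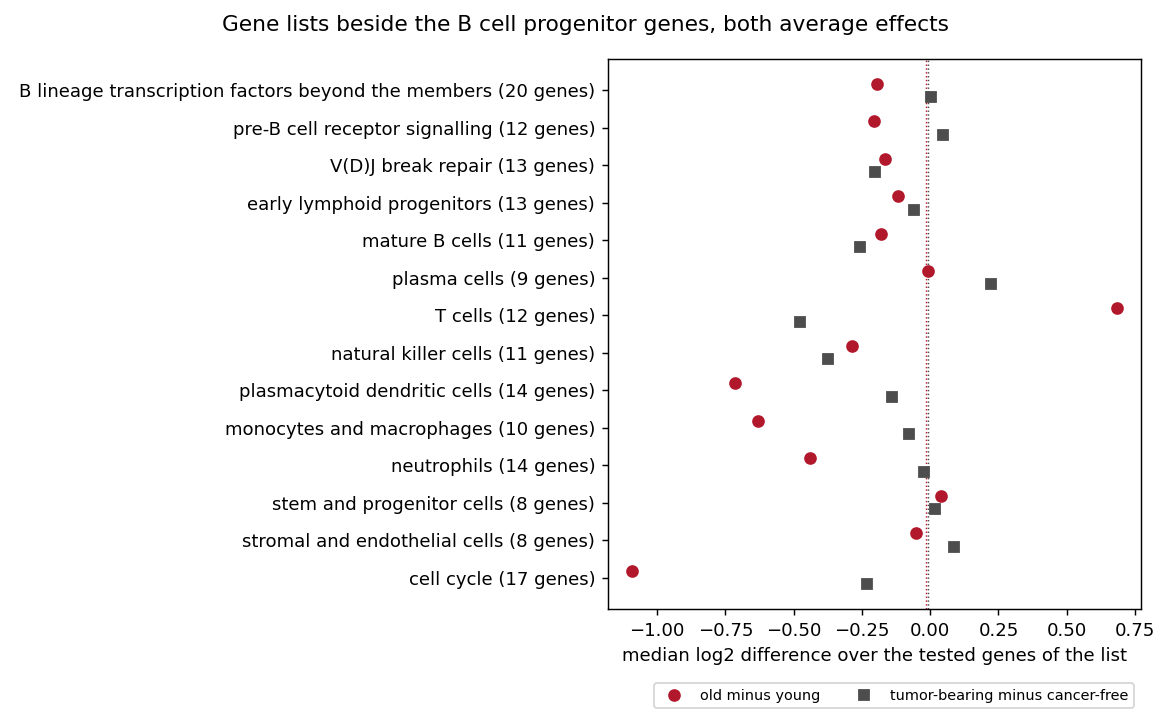
Median log2 difference (x axis) over the tested genes of each list (rows, number of genes in brackets), for old minus young (circles) and tumor-bearing minus cancer-free (squares), each averaged over the other factor; the dotted lines are the medians over all tested genes, both at −0.01. The 4 lists of B cell development in the top rows lie between −0.21 and −0.12 for age, and cell cycle genes lie lowest, at −1.09.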

How the data were processed

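RNA of sorted Sca1+ Kit- marrow cells, 500 pg per sample, was amplified, biotin-labelled and hybridised to 1-colour arrays, per the labels' protocols. The deposited values are log2 intensities made by the authors with RMA, and the submitters' processing notes name oligo 1.32.0 and R 3.2.0. The log2 scale is not written in the table and was taken from its range, 0.29 to 13.78. The array design and any filter are not given in the sources used here. Arrays carry no read depth, so their number limits the precision.

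Of 41345 probes, 23521 had 1 gene symbol, 1814 several and 16010 none; 23328 matched an Entrez identifier in the mouse reference tables. Of the 22180 genes, 1082 had more than 1 probe and were given the brightest. The 4 group means of 13805 genes were fitted with limma 3.58.1 in R 4.3.3 (lmFit and eBayes, residual degrees of freedom 10, prior 3.86), with 7 contrasts, two-sided, and Benjamini-Hochberg adjustment within each at 0.05. The labels call each sample a mouse and a biological replicate, and p-values measure the spread between these samples. The fit was tested on simulated data. Genes named were the 9 listed, the 3 nearest by correlation to each tested one, and the members of each marker list with the smallest p. The 9 genes and all lists were chosen with earlier results of these data known. Lists are described by counts and medians and carry no test. Alternatives covered the filter, array scaling, probe choice, variance model, array weights, samples fitted and each array left out. Shared probes and genes without a probe of their own were left out of the fit.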

Additional observations from a re-analysis of the deposited data

How the results depend on the processing

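The number of B cell progenitor genes called stayed at 0 in each of the 7 comparisons under every alternative run, including each array left out in turn (0 to 0), except that 1 gene, Rag2, entered and passed in the average age difference when the brightness filter was dropped. Of 42 differences of the 6 tested genes, 16 kept their sign under all alternatives and 26 turned under at least 1, and 0 of 983 alternative values were called (lowest adjusted p 0.0641, limma). The average age difference of Dntt lay between −2.06 and −0.90 (adjusted p 0.064 to 0.530). Without the filter, the average age difference of Rag2, between dim signals and not read as a fold, was −1.14 in log2 signal, −1.20 under cyclic loess (adjusted p 0.0511) and −1.15 with the replicate number as a block (adjusted p 0.114), and between −1.27 and −1.01 with each array left out. It kept its call under median centring (−1.20, 0.0194), array weights (−1.21, 0.0330) and a trended robust variance (−1.14, 0.0228). It also kept it without the 2 least correlated arrays (−1.26, 0.0293), an alternative chosen after seeing the data, as were all combinations of Rag2 with no filter. The cause of the lost calls was not tested.

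Replicate numbers did not pair the samples: 0 of 18 same-numbered pairs had deviations correlated above 0.1 (−0.08 to 0.09), and 4 arrays correlated best with their own number. Over all tested genes the count for the average age difference was 12, against 0 with the replicate block, 6 under cyclic loess, 43 without the 2 least correlated arrays, 57 with array weights, 80 under median centring, and 0 to 74 with 1 array left out (74 without old tumor-bearing replicate 3). For age in tumor-bearing mice it was 0, against 9 under median centring, 7 with the mean of a gene's probes and 6 without the 2 least correlated arrays. For tumor in old mice it was 0, against up to 4 with 1 array left out. Fitting only the groups compared could not be done for the 3 contrasts of all 4 groups. Limits are the 3 mice in 3 of the 4 groups, the dim signal of Rag2, Vpreb1 and Igll1, and the absence of a Rag1 probe of its own.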
